A study of Mus musculus with 80 samples.

Results

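Col10a1, Ihh, Pth1r, Pthlh, Panx3, Mef2c and Runx3 were taken as a set of 7 genes by their names, as the products that carry and control cartilage hypertrophy and the feedback loop of parathyroid hormone-related protein (PTHrP). They were 7 of 14688 genes in the count table. Of these, 6 reached the minimum count for testing in growth plate, a raw count of 15 or more in at least 1 library, and Pthlh did not. The rule itself used no measured value, though the members were chosen with earlier results of these data known.

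The libraries came from female C57BL/6J mice of 21 days that lacked MMP2 and MMP9 together (MMPdKO), MMP9 alone (MMP9-/-) or MMP2 alone (MMP2-/-), or were wild type (WT). Both alleles were null in every cell of the animal rather than in 1 lineage. MMP9-/- and WT mice came from a commercial supplier and MMP2-/- mice from another laboratory, and MMPdKO mice were bred from the single mutants through double heterozygotes, so that genotype and colony cannot be told apart. Growth plate was taken from cleaned tibiae, and cortical bone from the femoral shaft with the marrow flushed out and the covering membranes kept. Calvaria was taken from the frontal bone, with its periosteum and the suture tissue beside it kept as well. Each tissue was one piece with all of its cells, and RNA was read at the 3' end of transcripts by bulk MARS-seq. Growth plate had 7 MMPdKO, 7 MMP9-/-, 6 MMP2-/- and 7 WT libraries, cortical bone 6, 7, 5 and 7 in the same order, and calvaria 7 of each genotype. Within a tissue and genotype each library was a different mouse.

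In the growth plate, chondrocytes divide in columns, then enlarge, surround themselves with type X collagen and mineralise their matrix before it is invaded and replaced by bone. Cells about to enlarge secrete Indian hedgehog (Ihh), which keeps their neighbours dividing and raises the supply of PTHrP from cells at the far end of the column. PTHrP acts on its receptor in dividing and early enlarging cells and delays their enlargement, which closes a negative feedback loop. MMP2 and MMP9 are secreted proteases of the matrix, and mice without MMP9 are known for a lengthened zone of hypertrophic cartilage early in life.

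The total count was between 334395 and 1899252 in growth plate libraries, between 114408 and 1287045 in cortical bone and between 329333 and 1921698 in calvaria. The unit of all levels is CPM, in which counts are brought to a common library total with a trimmed mean correction (TMM), left out only for the summed Pthlh counts. The targeted genes followed the labels in growth plate. Mmp2 lay at 16.5 to 50.7 CPM in MMPdKO and 4.04 to 36.6 CPM in MMP2-/- libraries, against 335 to 595 CPM in MMP9-/- and 278 to 563 CPM in WT libraries. Mmp9 lay at 277 to 603 CPM in MMPdKO and 194 to 985 CPM in MMP9-/- libraries, against 1694 to 3968 CPM in MMP2-/- and 1542 to 3819 CPM in WT libraries. Tags at the 3' end can lie outside the deleted part, so these counts are no full check of the deletions. Of the growth plate libraries, 5 had less than 6000 CPM of Col2a1, the main collagen of cartilage. They were MMP9-/- replicate 7 (3907), MMP2-/- replicate 5 (940.1) and WT replicates 2, 3 and 7 (3394, 5106 and 2225). The members' comparisons that use them were repeated without them.

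The stretches that precede the start sites of the genes that differed between groups are shown as the sequence context of those changes, with Runx3 as the 1 member of the RUNX family in the set. They are 250 bases long, taken from RefSeq on GRCm38.p6 and written 5' to 3' on the gene's own strand, ending at the base before the start. In RefSeq, 6 of the 7 genes matched, and Panx3 did not. Capitals mark the letters TATAAA, the MEF2 consensus or the core bound by RUNX factors, ACCACA, each searched on both strands. The Col10a1 stretch, at chr10:34389731-34389980 (+), held TATAAA once, 32 bases before the start. The Ihh stretch, at chr1:74951673-74951922 (-), held none of these. Of the Pth1r starts, 3 were annotated, and the stretch of the third, at chr9:110742611-110742860 (-), held the MEF2 consensus once. The stretches of the first and second Pth1r starts held none of these and are not printed. That of the first Runx3 start, at chr4:135120395-135120644 (+), held ACCACA 2 times. The stretch of the second Runx3 start held none of these and is not printed either.
Col10a1: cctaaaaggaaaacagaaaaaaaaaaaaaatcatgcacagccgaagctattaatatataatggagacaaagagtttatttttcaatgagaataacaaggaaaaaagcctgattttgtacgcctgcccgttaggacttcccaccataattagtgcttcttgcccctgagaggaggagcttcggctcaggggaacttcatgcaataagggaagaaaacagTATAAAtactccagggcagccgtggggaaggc
Ihh: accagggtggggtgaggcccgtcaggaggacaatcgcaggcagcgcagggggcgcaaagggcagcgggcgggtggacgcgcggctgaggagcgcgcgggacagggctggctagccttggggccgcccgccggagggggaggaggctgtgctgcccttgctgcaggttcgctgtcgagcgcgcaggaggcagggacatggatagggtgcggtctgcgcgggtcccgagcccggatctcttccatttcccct
Pth1r: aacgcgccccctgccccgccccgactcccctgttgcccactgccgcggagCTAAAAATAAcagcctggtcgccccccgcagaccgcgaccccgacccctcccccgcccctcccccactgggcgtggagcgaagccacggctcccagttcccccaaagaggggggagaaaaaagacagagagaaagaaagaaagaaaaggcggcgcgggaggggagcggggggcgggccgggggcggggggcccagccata
Runx3: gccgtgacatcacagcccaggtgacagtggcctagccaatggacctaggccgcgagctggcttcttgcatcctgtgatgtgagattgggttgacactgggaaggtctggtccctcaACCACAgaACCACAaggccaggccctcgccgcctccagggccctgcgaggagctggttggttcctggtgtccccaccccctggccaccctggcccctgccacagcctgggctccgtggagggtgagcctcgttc
Among 32851 promoter stretches of this length, 12.4% held TATAAA, 14% held ACCACA, 2.92% held the MEF2 consensus and 0.225% held GACCACCCA, the core of GLI sites, which none of the members' stretches did. The ACCACA and GACCACCCA searches share the letters ACCAC. A match is a description of letters and was not measured as a bound site.

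Loss of MMP9 was set against WT to ask which genes of the growth plate depend on this protease. Type X collagen alpha 1 chain (Col10a1), the matrix protein that defines hypertrophic cartilage, and the receptor for PTHrP and parathyroid hormone (Pth1r) were higher in MMP9-/- than in WT growth plates. Ihh and pannexin 3 (Panx3), a channel protein of prehypertrophic and hypertrophic chondrocytes, were higher in most MMP9-/- libraries but did not pass the test. The transcription factors Mef2c and Runx3, both drivers of hypertrophy, overlapped between the genotypes. The call required an adjusted p under 0.05 and a change of at least 1.5-fold, which 2 of the 6 members tested met, both upward. Of all 10461 genes tested in this comparison 0.258% met it, 0.153% in the upward direction.

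Col10a1 had a lowest, median and highest level of 363, 5290.3 and 7886 CPM in MMP9-/- libraries, against 632, 1428 and 1974 CPM in WT libraries. In 6 of 7 MMP9-/- libraries it was above the highest WT library, whereas replicate 7, which was low in Col2a1, lay below the lowest WT library. The mean was 5038 ± 2468 CPM in MMP9-/- and 1334 ± 497 CPM in WT libraries (SD, n = 7 each), a log2 fold change of 1.91 ± 0.44 (SE) with an adjusted p of 0.0471 in edgeR's quasi-likelihood test with Benjamini-Hochberg adjustment. This call lay near the threshold. When single libraries were left out it held without MMP9-/- replicate 5 or 7 and was lost without any of the other 12, with log2 fold changes between 1.75 and 2.09 and adjusted p between 0.00509 and 0.141. Without the 5 libraries low in Col2a1 the log2 fold change was 1.80, with an edgeR adjusted p of 0.0864.

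Pth1r, which receives the PTHrP signal, had a lowest, median and highest level of 906, 1131 and 1605 CPM in MMP9-/- libraries, against 511, 683 and 835 CPM in WT libraries. All 7 MMP9-/- libraries were above all 7 WT libraries, which 0.354% of the genes tested showed in this direction. The highest MMP9-/- library was replicate 7, which was low in Col2a1. The log2 fold change was 0.79 ± 0.16 (SE; edgeR adjusted p = 0.0237). The call was lost without MMP9-/- replicate 3, 4 or 7 or WT replicate 1, 3, 5 or 7, with edgeR adjusted p between 0.0512 and 0.101. Without the 5 libraries low in Col2a1 it was 0.65 (edgeR adjusted p = 0.177).

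Ihh, the ligand that cells release before they enlarge, had a lowest, median and highest level of 39.0, 179 and 358 CPM in MMP9-/- libraries, against 31.3, 75.2 and 153 CPM in WT libraries. Its level was above the highest WT library in 5 of 7 MMP9-/- libraries, with a log2 fold change of 1.14 ± 0.40 (SE) and an edgeR adjusted p of 0.152. Panx3 lay at 42.8, 91.9 and 143 CPM in MMP9-/- libraries, against 30.7, 50.4 and 88.4 CPM in WT libraries. Here 6 of 7 MMP9-/- libraries were above the highest WT library, with a log2 fold change of 0.72 ± 0.33 (SE; edgeR adjusted p = 0.274). For both genes the lowest MMP9-/- library was again replicate 7. Without the 5 libraries low in Col2a1 the log2 fold change was 1.00 for Ihh (edgeR adjusted p = 0.186) and 0.58 for Panx3 (0.523).

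Mef2c had a log2 fold change of 0.39 with a 95% interval of -0.06 to 0.84 (edgeR adjusted p = 0.426). Its levels were 66.1 to 121 CPM in MMP9-/- libraries and 50.4 to 88.4 CPM in WT libraries, which overlapped. Runx3 had 0.33 with an interval of -0.19 to 0.85 (edgeR adjusted p = 0.588), from levels of 38.1 to 69.0 CPM in MMP9-/- and 18.1 to 62.3 CPM in WT libraries. Both intervals hold 0 as well as changes above 1.5-fold. Without the libraries low in Col2a1 the values were 0.29 for Mef2c (edgeR adjusted p = 0.726) and 0.30 for Runx3 (0.715).

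**Figure D1:**
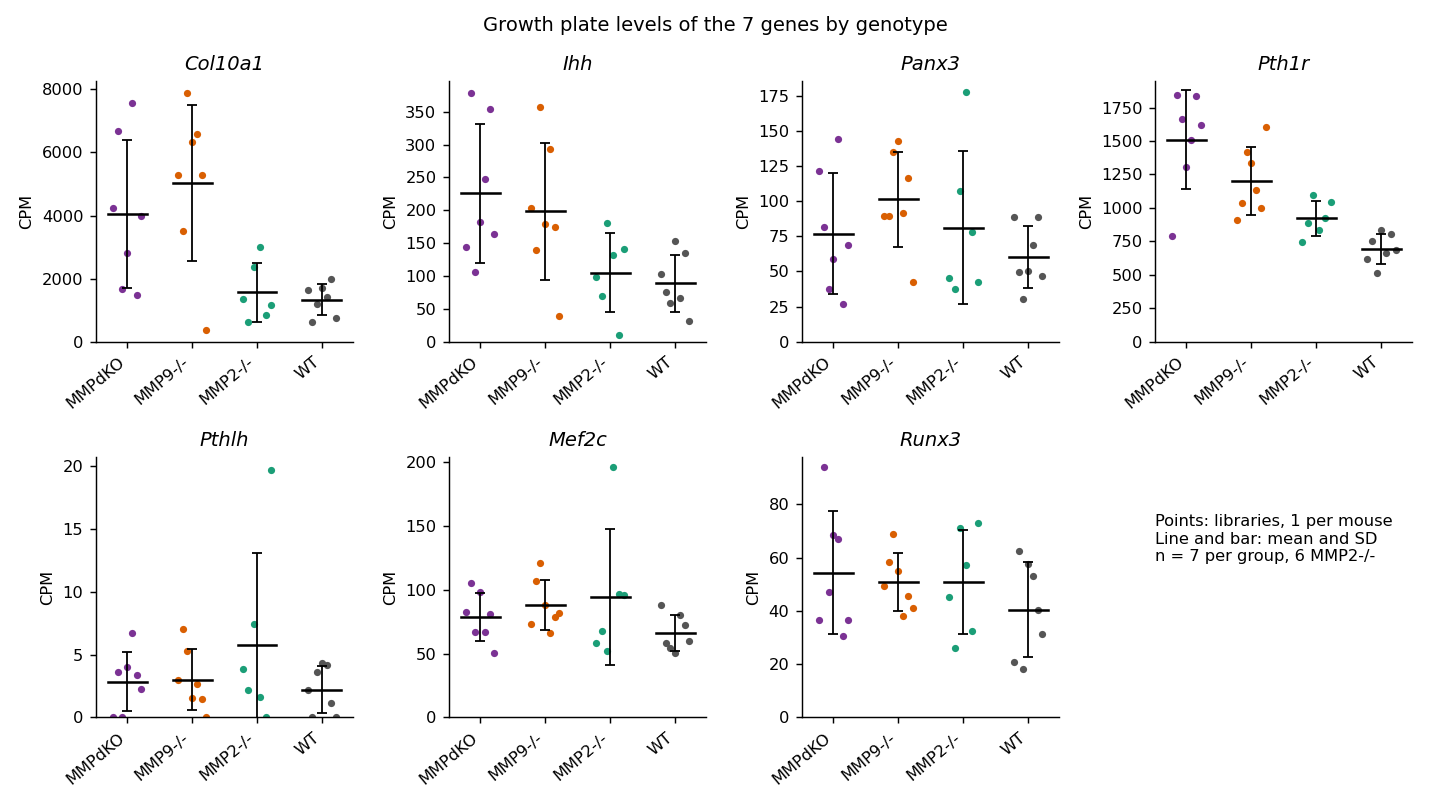
Level in CPM (vertical axes) of each of the 7 genes in growth plate libraries of MMPdKO, MMP9-/-, MMP2-/- and WT mice (horizontal axes), with points for libraries, lines for means and bars for SD (n = 7 per group, 6 for MMP2-/-). Col10a1 lay above the highest WT library, 1974 CPM, in 5 MMPdKO and 6 MMP9-/- libraries, while Pth1r did not overlap between MMP9-/- and WT mice.

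The double knockout asked what the loss of both proteases does to the same tissue. In MMPdKO growth plates Col10a1, Ihh and Pth1r were all higher than in WT growth plates, between 2.16-fold and 3.03-fold. Panx3, Mef2c and Runx3 did not pass the test. Calls were made for 3 of the 6 genes tested, against 5.73% of all 10461 genes, 2.41% in the upward direction. The 3 knockout comparisons share the same 7 WT libraries, so their values are given side by side and are not independent of each other.

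Pth1r had a lowest, median and highest level of 788, 1617 and 1846 CPM in MMPdKO libraries, against 511, 683 and 835 CPM in WT libraries. Apart from MMPdKO replicate 1, every MMPdKO library was above every WT library. The mean was 1510.1 ± 369 CPM in MMPdKO and 695 ± 112 CPM in WT libraries (SD, n = 7 each), with a log2 fold change of 1.11 ± 0.16 (SE) and an edgeR adjusted p of 0.000409. By p-value it ranked 3 among all 10461 genes tested. The call held without each of the 14 libraries in turn, and without the libraries low in Col2a1 the log2 fold change was 1.06 (edgeR adjusted p = 0.00389).

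Col10a1 had a lowest, median and highest level of 1493, 3972 and 7564 CPM in MMPdKO libraries, against 632, 1428 and 1974 CPM in WT libraries. It was above the highest WT library in 5 of 7 MMPdKO libraries, and the other 2 lay within the WT range. On the log2 scale the change was 1.60 ± 0.43 (SE; edgeR adjusted p = 0.0268). The call was lost without MMPdKO replicate 5 (edgeR adjusted p = 0.0507), MMPdKO replicate 7 (0.0501) or WT replicate 3 (0.0623). Without the libraries low in Col2a1 it was 1.28 (edgeR adjusted p = 0.0376).

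Ihh had a lowest, median and highest level of 107, 183 and 378 CPM in MMPdKO libraries, against 31.3, 75.2 and 153 CPM in WT libraries. Here too 5 of 7 MMPdKO libraries were above the highest WT library. The libraries were not ordered alike for both genes, since MMPdKO replicate 6 had 355 CPM of Ihh and the lowest Col10a1 level of its group. The log2 fold change of Ihh was 1.29 ± 0.41 (SE), and its edgeR adjusted p of 0.0498 was at the threshold. The call held without MMPdKO replicate 1 or WT replicate 4 and was lost without any of the other 12 libraries, with edgeR adjusted p up to 0.111, and without the libraries low in Col2a1 the log2 fold change was 0.99 (edgeR adjusted p = 0.0527). It was lost as well with no minimum count (edgeR adjusted p = 0.0651) and with RLE, the scaling that DESeq2 uses (0.0523).

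Panx3 had a lowest, median and highest level of 27.02, 68.5 and 144 CPM in MMPdKO libraries, against 30.7, 50.4 and 88.4 CPM in WT libraries, with a log2 fold change of 0.36 ± 0.34 (SE; edgeR adjusted p = 0.559). Mef2c lay at 50.3, 81.0 and 105 CPM in MMPdKO libraries, against 50.4, 59.9 and 88.4 CPM in WT libraries (log2 fold change 0.24, edgeR adjusted p = 0.591). Runx3 lay at 30.4, 47.1 and 94.1 CPM in MMPdKO libraries, against 18.1, 40.3 and 62.3 CPM in WT libraries (log2 fold change 0.45, edgeR adjusted p = 0.337). The groups overlapped for all 3 genes.

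Loss of MMP2 alone was compared with WT in the same fit. None of the 6 genes tested passed, and 0.0287% of all genes did. Col10a1 had a lowest, median and highest level of 640.3, 1266 and 2991 CPM in MMP2-/- libraries, against 632, 1428 and 1974 CPM in WT libraries. The groups overlapped, with a log2 fold change of 0.23 and a 95% interval of -0.63 to 1.09 (edgeR adjusted p = 0.947). Ihh lay at 10.5, 115 and 180.1 CPM in MMP2-/- libraries, against 31.3, 75.2 and 153 CPM in WT libraries (log2 fold change 0.21, interval -0.62 to 1.04, edgeR adjusted p = 0.951). The intervals of both genes still hold a change of 1.5-fold in either direction.

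Pth1r was the gene of the set with the smallest unadjusted p for MMP2 loss. Its lowest, median and highest levels were 744, 906 and 1094 CPM in MMP2-/- libraries, against 511, 683 and 835 CPM in WT libraries. In 5 of 6 MMP2-/- libraries it was above the highest WT library, by a log2 fold change of 0.41 ± 0.17 (SE) that did not pass after adjustment (edgeR adjusted p = 0.555). Mef2c had 0.52 ± 0.24 (SE; edgeR adjusted p = 0.585), with 1 MMP2-/- library, replicate 4, at 196 CPM and the next at 96.6 CPM. Panx3 (0.45) and Runx3 (0.33) overlapped between the groups as well. Without the libraries low in Col2a1 no member passed either, with log2 fold changes of 0.045 for Col10a1, 0.16 for Ihh, 0.35 for Pth1r, 0.41 for Mef2c, 0.25 for Panx3 and 0.38 for Runx3 (edgeR adjusted p between 0.825 and 1.00).

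The 2 single knockouts and the double knockout allow the effects of both losses to be set against each other. Between MMPdKO and MMP9-/- growth plates no member passed, and 0.00956% of all genes did. Col10a1 had a log2 fold change of -0.32 (edgeR adjusted p = 0.979), Ihh 0.16 (0.995) and Pth1r 0.32 ± 0.16 (SE; 0.966). Between MMPdKO and MMP2-/- growth plates no member passed either (0.0191% of all genes). Here Col10a1 had 1.37 ± 0.45 (SE; edgeR adjusted p = 0.243), Ihh 1.08 (0.304) and Pth1r 0.70 ± 0.17 (SE; 0.137).

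The Pth1r difference between MMPdKO and MMP2-/- mice depended on the libraries and the tool. It passed without MMPdKO replicate 1 (edgeR adjusted p = 0.0281), without the libraries low in Col2a1 (0.0389), with DESeq2 (0.037) and with the score of resting and proliferating chondrocyte genes as a covariate (0.036), under which Ihh passed too (0.93, 0.0322). The interaction, which asks whether losing both proteases differs from the sum of the single losses on the log2 scale, gave 0% of all genes. It was -0.55 ± 0.61 (SE) for Col10a1 (edgeR adjusted p = 0.971), -0.06 for Ihh (0.999), -0.09 for Pth1r (0.989), -0.81 for Panx3 (0.921) and -0.67 for Mef2c (0.921). These intervals are wide, and the signs of the Ihh and Pth1r terms changed with the libraries used.

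After these values had been seen, the 14 growth plate libraries without Mmp9 (MMPdKO and MMP9-/-) were set against the 13 with it (MMP2-/- and WT). The same 3 genes differed. Pth1r had a log2 fold change of 0.75 ± 0.12 (SE; edgeR adjusted p = 0.000408), Col10a1 1.64 ± 0.31 (SE; 0.00532) and Ihh 1.11 ± 0.29 (SE; 0.0304), while 2.51% of all genes passed, 1.06% upward. Panx3 (0.31), Mef2c (0.05) and Runx3 (0.22) did not. Without the libraries low in Col2a1 the values were 0.68 for Pth1r (edgeR adjusted p = 0.00433), 1.51 for Col10a1 (0.00187) and 0.91 for Ihh (0.0143). The Pth1r and Col10a1 calls held without each of the 27 libraries in turn, and the Ihh call was lost without MMPdKO replicate 6 (edgeR adjusted p = 0.0525), MMP9-/- replicate 3 (0.0643), MMP2-/- replicate 1 (0.0638) or WT replicate 3 (0.0575).

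**Figure D2:**
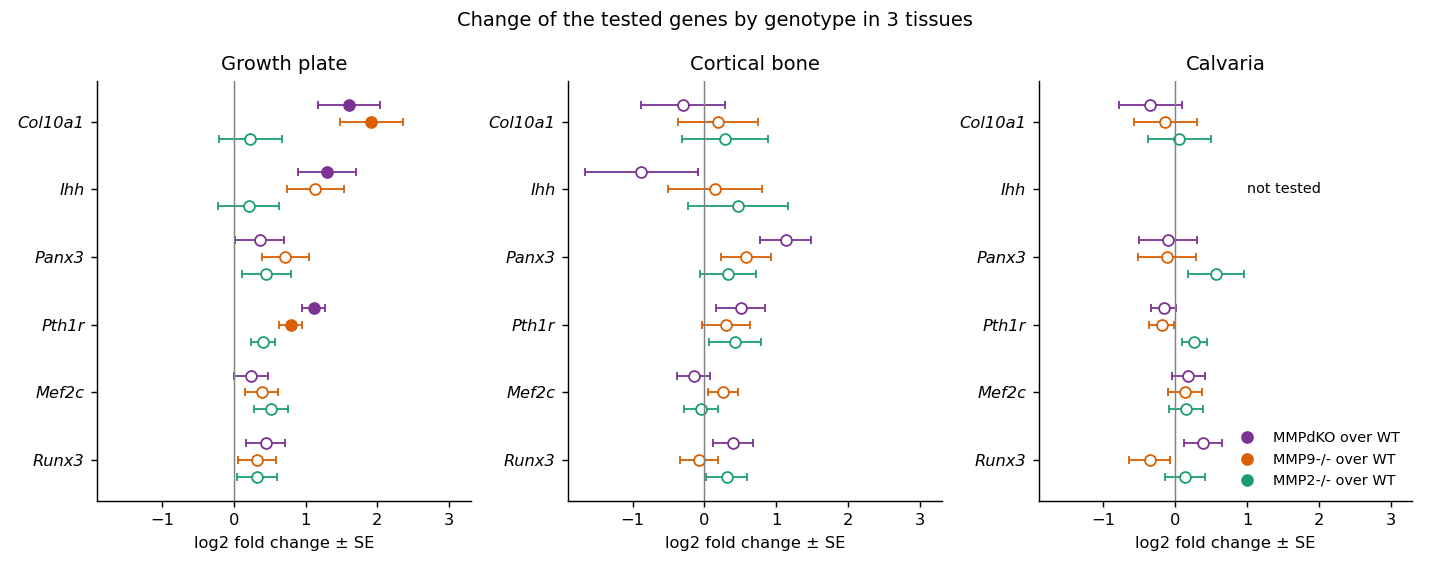
Log2 fold change against WT with its SE (horizontal axes) of the 6 tested genes (vertical axes) for MMPdKO, MMP9-/- and MMP2-/- mice in growth plate, cortical bone and calvaria, with filled points for genes called at adjusted p under 0.05 and at least 1.5-fold. All 5 filled points lie in growth plate, at 1.60 and 1.91 for Col10a1, 1.29 for Ihh, and 1.11 and 0.79 for Pth1r.

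Pthlh, the gene for PTHrP, was too sparse to compare. The highest count in any growth plate library was 7. Summed over libraries it had 11 counts in MMPdKO, 24 in MMP9-/-, 21 in MMP2-/- and 12 in WT growth plates. As CPM of the summed counts, without the TMM correction, that was 2.79 (exact Poisson 95% interval 1.39 to 5.00) in MMPdKO, 3.21 (2.06 to 4.77) in MMP9-/-, 4.25 (2.63 to 6.50) in MMP2-/- and 2.41 (1.25 to 4.21) in WT growth plates. The intervals, which cover counting error only, overlap. With no minimum count the edgeR adjusted p was 0.935 for MMPdKO, 0.884 for MMP9-/- and 0.841 for MMP2-/- against WT. A difference in the ligand was therefore not detectable at this depth.

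Beside the members, genes known from hypertrophic cartilage and mineralisation were counted as a list of 25 tested genes. In MMPdKO growth plates 3 were called higher and none lower, where 2.41% of all genes were called higher and 3.32% lower. The median log2 fold change was 0.32 against 0.00 over all genes. The list was chosen with earlier results of these data known, so its count and median are a description. Growth plate libraries also held osteoblast and osteocyte markers, 9 genes that summed to 35992 to 72034 CPM in MMPdKO and 29193 to 81740 CPM in WT libraries. In WT mice the median of this sum was 50638 CPM in growth plate, 47470 CPM in cortical bone and 46717 CPM in calvaria. The part of these cells in the differences of the listed genes was not tested. Tissue-nonspecific alkaline phosphatase (Alpl), which frees phosphate for mineral, had a lowest, median and highest level of 1283, 1493 and 2391 CPM in MMPdKO libraries, against 585, 878 and 1275 CPM in WT libraries. Its groups did not overlap, as for 0.545% of all genes in this direction (log2 fold change 0.87 ± 0.18 SE, edgeR adjusted p = 0.0106).

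Mmp13, the collagenase of late hypertrophic cells, lay at 38.8, 58.7 and 101 CPM in MMPdKO libraries, against 12.01, 26.1 and 37.9 CPM in WT libraries, again without overlap (1.32 ± 0.41 SE, edgeR adjusted p = 0.0483). Phospho1, a phosphatase of mineralising vesicles, lay at 277, 446 and 635 CPM in MMPdKO libraries, against 177, 216 and 299 CPM in WT libraries (0.95 ± 0.23 SE, edgeR adjusted p = 0.016). With the neutrophil score of each library as a covariate none of these 3 genes was called. The log2 fold change was then 0.56 for Alpl (edgeR adjusted p = 0.247), 1.52 for Mmp13 (0.247) and 0.52 for Phospho1 (0.36). Mmp13 was not called with RLE scaling (edgeR adjusted p = 0.0515), with no minimum count (0.061) or without WT replicate 7 (0.0591) either. In MMP9-/- and in MMP2-/- growth plates none of the 25 genes was called, with medians of 0.44 and 0.27 against 0.02 and 0.03 over all genes.

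Genes on either side of the loop were counted in the same way. Of 22 genes that carry the PTHrP receptor signal to the nucleus, none was called in MMPdKO (median 0.08), MMP9-/- (0.11) or MMP2-/- (0.08) growth plates. Of 14 hedgehog pathway genes, none was called either, with medians of 0.28 in MMPdKO, 0.29 in MMP9-/- and 0.35 in MMP2-/- growth plates. Gli1, a transcription factor whose own gene is switched on by hedgehog signal, lay at 21.2, 45.3 and 75.4 CPM in MMPdKO libraries, against 19.9, 27.9 and 48.0 CPM in WT libraries (log2 fold change 0.44 ± 0.25 SE, edgeR adjusted p = 0.28). Its groups overlapped. None of 6 relatives from the MEF2, RUNX and pannexin families was called in any of the 3 comparisons.

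Markers of other cells moved between the same groups, and in bulk tissue fewer cells of a type and less RNA per cell cannot be told apart. The list of resting and proliferating chondrocyte genes, 24 of 24 above 0, summed to 18866 to 86554 CPM in MMPdKO and 12213 to 67697 CPM in MMP9-/- libraries and 5545 to 67979 CPM in MMP2-/- libraries, against 6867 to 42872 CPM in WT libraries. In MMPdKO growth plates 1 of its 24 genes was called, Col11a2, a cartilage collagen chain (0.64, edgeR adjusted p = 0.0221), which was not called without the libraries low in Col2a1 (0.0641), and none in MMP9-/- growth plates. The 11 neutrophil markers summed to 633 to 3486 CPM in MMPdKO and 824 to 4789 CPM in MMP9-/- libraries and 923 to 9840.2 CPM in MMP2-/- libraries, against 3325 to 9159 CPM in WT libraries. Of them 5 were lower in MMPdKO growth plates, none was called in MMP9-/- growth plates, and none was at 0 in every library.

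Of 9 B cell markers 4 were lower in MMPdKO growth plates, with sums of 89.3 to 378 CPM in MMPdKO and 119 to 523 CPM in MMP9-/- libraries and 145 to 795 CPM in MMP2-/- libraries, against 462 to 943 CPM in WT libraries. Of 7 erythroid markers 2 were lower (11750 to 70206 CPM in MMPdKO, 11449 to 75256 CPM in MMP9-/- and 13562 to 90761 CPM in MMP2-/-, against 56432 to 141827 CPM in WT libraries). Of 7 endothelial markers 5 were higher (461 to 1012 CPM in MMPdKO, 504 to 898 CPM in MMP9-/- and 368 to 797 CPM in MMP2-/-, against 329 to 576 CPM in WT libraries). Of 6 macrophage markers 3 were lower in MMPdKO growth plates, while the sum of the list overlapped between the groups, at 667 to 1060.4 CPM (median 891) in MMPdKO, 733 to 1147 CPM (959) in MMP9-/- and 788 to 938 CPM (818) in MMP2-/-, against 745 to 1169 CPM (829) in WT libraries. Without the libraries low in Col2a1 the MMPdKO counts were 4 neutrophil, 2 B cell, 3 erythroid and 2 macrophage markers lower, with 1 macrophage and 5 endothelial markers higher. The part of these 4 cell types in the members' differences was not tested.

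Chondrocyte and neutrophil content were entered as covariates. With the resting and proliferating chondrocyte score of each library as a covariate, all 5 calls against WT held. The log2 fold changes for MMPdKO were then 1.19 for Col10a1 (edgeR adjusted p = 0.0154), 0.85 for Ihh (0.00943) and 1.10 for Pth1r (0.000163), and for MMP9-/- 1.35 for Col10a1 (0.0169) and 0.77 for Pth1r (0.00687). With the neutrophil score as a covariate, Pth1r was no longer called in MMP9-/- (0.59, edgeR adjusted p = 0.427) nor Ihh in MMPdKO growth plates (1.78, 0.116). Col10a1 kept its call in MMPdKO (2.12, edgeR adjusted p = 0.0338) and MMP9-/- growth plates (2.44, 0.023), and Pth1r in MMPdKO growth plates (0.92, 0.0152). With the same covariate Pth1r also lost its call between libraries without and with Mmp9 (0.56, edgeR adjusted p = 0.0832).

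Within the genotype groups the members differed in how closely they ran with the cartilage, neutrophil, B cell and osteoblast content of a library. Over the 27 growth plate libraries, each taken relative to its group mean on the log2 scale, the Pearson r with the resting and proliferating chondrocyte score was 0.906 for Ihh, 0.709 for Col10a1, 0.396 for Panx3 and 0.159 for Pth1r. With the neutrophil score it was 0.560 for Ihh, 0.503 for Col10a1 and -0.446 for Pth1r, and with the B cell score 0.520, 0.588 and -0.565 for the same genes in that order. The Pearson r with a score of osteoblast and osteocyte markers was -0.601 for Ihh, -0.468 for Col10a1 and -0.330 for Pth1r. Between members it was 0.770 for Col10a1 and Panx3, 0.673 for Col10a1 and Ihh, 0.145 for Ihh and Pth1r, and -0.185 for Col10a1 and Pth1r. These values describe libraries that share dissection and depth and carry no test.

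**Figure D3:**
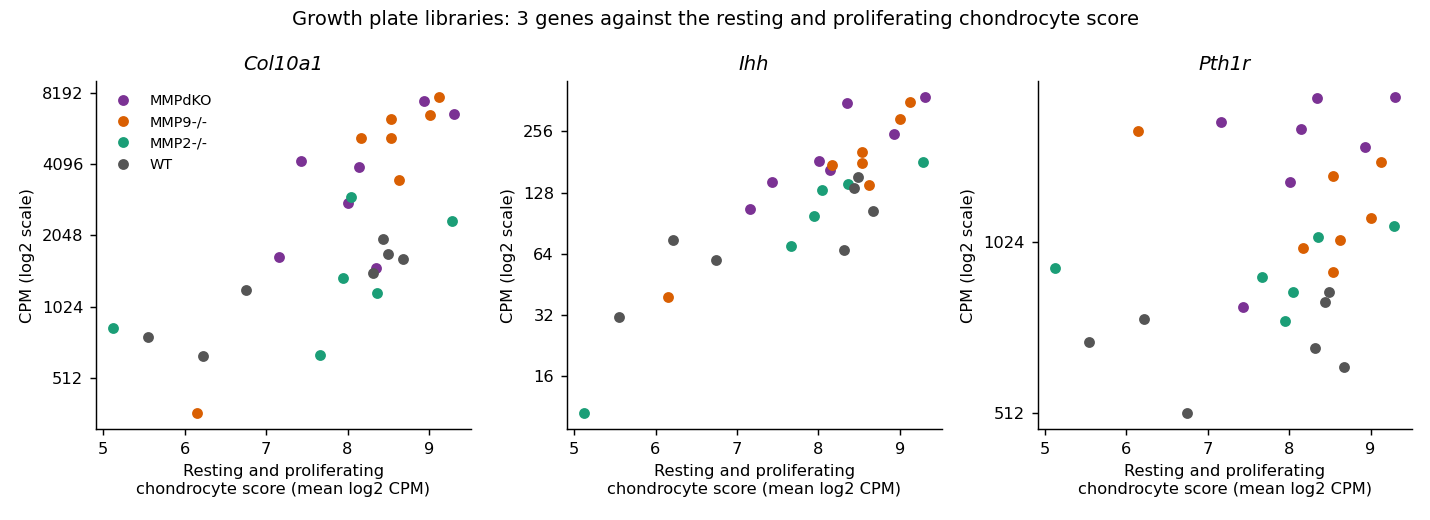
Level of Col10a1, Ihh and Pth1r in CPM on a log2 scale (vertical axes) against the resting and proliferating chondrocyte score, the mean log2 CPM of the listed genes (horizontal axes), in the 27 growth plate libraries, coloured by genotype. Ihh climbs with the score (r = 0.906 within groups), whereas Pth1r is spread along it (r = 0.159) with MMPdKO libraries mostly uppermost.

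The genes whose pattern over the same 27 libraries was most like each member were sought among 6874 genes. Ihh was closest to the cartilage genes Col9a2 (r = 0.923), Acan (0.923), Cnmd (0.920) and Col9a3 (0.918) and to Fxyd2 (0.913). Col10a1 was closest to Scin (0.904), Aldh1a3 (0.900), Scd2 (0.897), Nrep (0.882) and Papss2 (0.879). Pth1r was closest to Col11a2 (0.854), Cspg4 (0.834), Tns2 (0.764), Hspg2 (0.743) and Nfix (0.743).

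Panx3 was closest to Col11a1 (0.921), Tspan3 (0.900), Nedd4 (0.881), Ccdc80 (0.870) and Rcn2 (0.869). For Mef2c and Runx3 the closest genes were further away, led by Ubxn4 (0.672), Cdc42 (0.658), Sf3b1 (0.642), Spcs3 (0.619) and Lpp (0.612) for Mef2c. For Runx3 they were Shox2 (0.668), Ehmt1 (0.656), Zer1 (0.621) and Ccn1 (0.621). The lists of the 6 members had no gene in common.

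Comparing the tissues of WT mice asked where the genes are normally expressed. Col10a1, Ihh and Panx3 were higher in growth plate than in cortical bone and than in calvaria, and Pth1r than in cortical bone. Runx3 was higher in growth plate than in calvaria, and Mef2c passed in neither comparison. In growth plate against cortical bone 4 of the 6 genes tested were called, all higher in growth plate, where 2.8% of 10097 genes were called, 2% as higher. In growth plate against calvaria 4 of 6 were called as higher as well, where 4.44% of genes were called, 2.61% as higher.

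Panx3 had a lowest, median and highest level of 30.7, 50.4 and 88.4 CPM in growth plate, against 7.77, 11.2 and 26.7 CPM in cortical bone and 1.45, 7.74 and 14.96 CPM in calvaria. Every growth plate library was above every library of the other tissues, which 0.188% of genes showed against cortical bone and 1.01% against calvaria. In log2 terms Panx3 was higher by 2.27 ± 0.30 (SE; edgeR adjusted p = 0.000144) over cortical bone and 2.99 ± 0.32 (SE; 7.6e-07) over calvaria.

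Ihh lay at 31.3, 75.2 and 153 CPM in growth plate, against 0.807, 6.21 and 39.2 CPM in cortical bone and 3.13, 9.37 and 12.2 CPM in calvaria. It did not overlap with calvaria, and overlapped with cortical bone through 1 library, WT replicate 5. On the log2 scale Ihh was higher by 3.41 ± 0.46 (SE; edgeR adjusted p = 0.000144) over cortical bone and 3.48 ± 0.46 (SE; 1.35e-05) over calvaria.

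Col10a1 lay at 632, 1428 and 1974 CPM in growth plate, against 52.8, 178 and 648 CPM in cortical bone and 28.8, 174 and 238 CPM in calvaria. Its highest cortical bone library was the same replicate 5, whose resting and proliferating chondrocyte genes summed to 14831 CPM. The log2 fold change was 2.67 ± 0.50 (SE; edgeR adjusted p = 0.00255) over cortical bone and 3.29 ± 0.51 (SE; 0.000133) over calvaria. These 3 genes kept both calls without each of the 14 libraries of a comparison in turn. Without the 3 WT growth plate libraries low in Col2a1, the 4 genes called over cortical bone and the 4 called over calvaria kept their calls, with Col10a1 at 3.02 over cortical bone (edgeR adjusted p = 0.00122) and 3.60 over calvaria (0.000165).

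Pth1r lay at 511, 683 and 835 CPM in growth plate, against 187, 253 and 680.0 CPM in cortical bone and 284, 371 and 632 CPM in calvaria. The groups overlapped. Osteoblasts also use this receptor, and their part in these levels was not tested. The log2 fold change was 1.08 ± 0.24 (SE; edgeR adjusted p = 0.0109) over cortical bone and 0.79 ± 0.24 (SE; 0.0552) over calvaria. With the mouse as a block, since 7 mice gave WT libraries of more than 1 tissue, the call over cortical bone was lost (1.09, edgeR adjusted p = 0.098). Over calvaria it was gained without growth plate WT replicate 3 (edgeR adjusted p = 0.043) or calvaria WT replicate 6 (0.0357) with DESeq2 (0.0422) and with only these 2 groups in the fit (0.00655).

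Runx3 lay at 18.1, 40.3 and 62.3 CPM in growth plate, against 15.9, 25.8 and 38.8 CPM in cortical bone and 10.5, 20.3 and 31.0 CPM in calvaria. It was called over calvaria (0.99 ± 0.27 SE, edgeR adjusted p = 0.0268), which was lost with the mouse as a block (1.08, 0.051). The call was also lost without growth plate WT replicate 2, 4, 5 or 6 or calvaria WT replicate 1, 2, 3, 5 or 7, with edgeR adjusted p between 0.0526 and 0.0929. Mef2c lay at 50.4, 59.9 and 88.4 CPM in growth plate, against 47.8, 66.8 and 97.8 CPM in cortical bone and 33.0, 58.3 and 70.0 CPM in calvaria, with log2 fold changes of 0.05 (edgeR adjusted p = 0.93) and 0.33 (0.394).

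Between cortical bone and calvaria none of the 6 genes passed, where 5.55% of all genes did. By their medians the tissues ran growth plate, cortical bone and calvaria for Col10a1, Panx3 and Runx3, and growth plate, calvaria and cortical bone for Ihh and Pth1r. The 2 bones, next to each other in these orders, overlapped for each of the 5 genes, with the largest log2 fold change 0.72 for Panx3 (edgeR adjusted p = 0.279). Pthlh had medians of 2.18 CPM in growth plate, 1.84 CPM in cortical bone and 1.45 CPM in calvaria and overlapped throughout. Markers of resting and proliferating chondrocytes differed between the same tissues, with 18 of 24 higher in growth plate than in cortical bone and 19 of 24 higher than in calvaria, and their part in the members' differences was not tested.

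**Figure D4:**
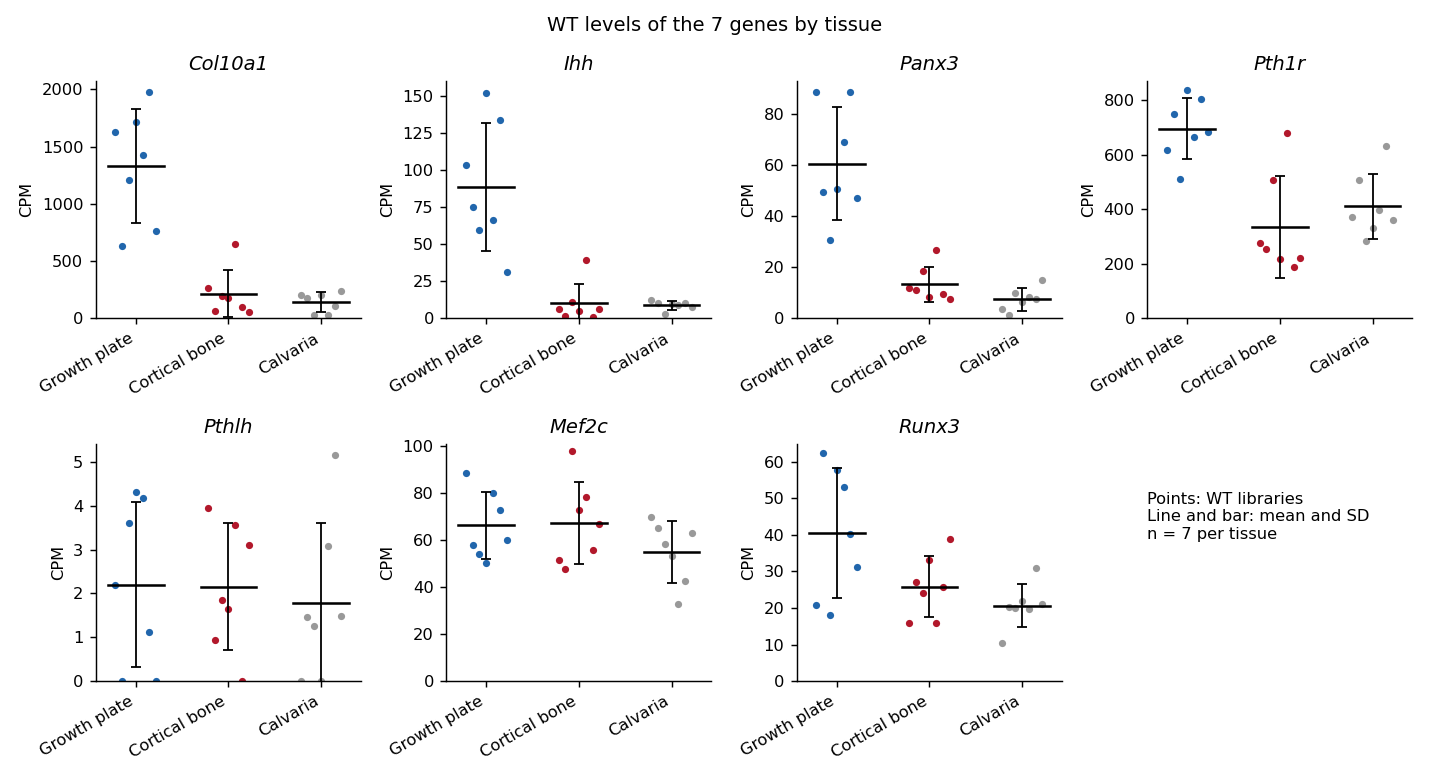
Level in CPM (vertical axes) of each of the 7 genes in WT growth plate, cortical bone and calvaria (horizontal axes), with points for libraries, lines for means and bars for SD (n = 7 per tissue). Panx3 in growth plate, at 30.7 to 88.4 CPM, lies clear of both bones, whereas Mef2c and Pthlh overlap in all 3 tissues.

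Of 23 other hypertrophic cartilage genes, 5 were higher in WT growth plate than in cortical bone, among them Cdkn1c, a cell cycle inhibitor (1.72, edgeR adjusted p = 0.00538), Ibsp, a bone matrix protein (1.20, 0.012), Ccn2, a matrix growth factor (0.95, 0.0314) and Zbtb20, a repressor (1.05, 0.0325). The hedgehog readouts Gli1 (1.82, edgeR adjusted p = 0.00564) and Ptch1 (1.36, 0.00415), a receptor of the ligand, were 2 of 10 hedgehog genes called there. Of 21 PTHrP signalling genes 2 were higher, Prkar2a, a protein kinase A subunit (0.82, edgeR adjusted p = 0.00724), and Ccnd1, a cyclin (1.01, 0.00786). Of the 6 relatives 1 was higher, Runx2 (0.71, edgeR adjusted p = 0.0411), which is also in the hypertrophic list and counted there.

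Over calvaria 4 of the 23 hypertrophic genes were higher, with Ibsp (1.78, edgeR adjusted p = 0.000118), Phospho1 (1.03, 0.0101) and Sgms2, a sphingomyelin synthase (0.85, 0.0188), and 1 was lower, Cyp26b1, which breaks down retinoic acid (-1.45, 0.0108). Zfp521, a zinc finger protein downstream of PTHrP, was lower in growth plate (-1.53, edgeR adjusted p = 0.0388), and Ptch1 was higher (0.88, 0.0433). Gli1 was not called over calvaria, and it was lower in WT cortical bone than in calvaria (-1.82, edgeR adjusted p = 0.00252). None of the relatives was called over calvaria.

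Whether the knockouts act on these genes in bone as well was asked in cortical bone and calvaria. No member was called there in any of the 6 comparisons with WT. The share of all genes called was 0.0314% for MMPdKO, 0.0105% for MMP9-/- and 0.0419% for MMP2-/- cortical bone. In calvaria it was 0.0657% for MMPdKO, 0.0188% for MMP9-/- and 0.216% for MMP2-/- mice. Col10a1 in cortical bone had a lowest, median and highest level of 30.6, 199.95 and 315 CPM in MMPdKO and 46.6, 222 and 457 CPM in MMP9-/- libraries, against 52.8, 178 and 648 CPM in WT libraries. In MMP2-/- cortical bone it was 187, 258, 59.6, 218 and 581 CPM. All 3 knockouts overlapped with WT.

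Panx3 was the member with the smallest p in cortical bone. It lay at 15.2, 25.2 and 47.6 CPM in MMPdKO and 9.34, 22.3 and 26.1 CPM in MMP9-/- libraries, against 7.77, 11.2 and 26.7 CPM in WT libraries. In MMP2-/- cortical bone it was 15.8, 8.24, 7.35, 26.0 and 28.2 CPM. In 3 of 6 MMPdKO libraries it was above the highest WT library, and the log2 fold change of 1.13 ± 0.35 (SE) did not pass (edgeR adjusted p = 0.409). In growth plate the same gene had 0.36 in MMPdKO mice.

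The difference of an effect between growth plate and bone was tested directly. For MMP9 loss, the Col10a1 effect in growth plate minus that in calvaria was 2.07 ± 0.73 (SE; edgeR adjusted p = 0.193), and minus that in cortical bone 1.74 (1.00). For the double loss these were 1.95 (0.136) and 1.91 (0.751). The Pth1r effect of the double loss in growth plate minus that in calvaria was 1.29 ± 0.34 (SE; edgeR adjusted p = 0.0514), close to the threshold, and no member's difference passed. Without the 5 libraries low in Col2a1 this Pth1r value was 1.22 (edgeR adjusted p = 0.0808), and no member passed either. Over 4 alternatives, that one and the mouse as a block among them, the Pth1r value lay between 1.14 and 1.29. Its edgeR adjusted p lay between 0.0476 and 0.183, and it passed in 1 of them. Of all genes 0.548% passed for that contrast and 0.0265% for MMP9 loss, and 0% in the other 4. Alpl of the hypertrophic list did differ, with the effect of the double loss 1.32 larger in growth plate than in calvaria (edgeR adjusted p = 0.0465), but not with the mouse as a block (1.07, 0.115) or with no minimum count (1.28, 0.0565). With that block the number of genes that passed for this contrast was 2, in place of 62.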

How the data were processed

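The authors sequenced 3' ends of bulk RNA (MARS-seq), demultiplexed with bcl2fastq 2.20.0.422, trimmed with cutadapt, aligned with STAR 2.7.3a to GRCm38 and counted with HTSeq, per the submitters' processing notes. The deposited values used here are raw counts per gene and library. Whether reads of 1 molecular barcode were collapsed is not given in the sources used here, so counting intervals cover counting error only. A second deposited table of normalised counts, made by the authors with DESeq2 1.26.0, was not used.

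Genes with a count of 15 or more in at least 1 library of a fit were tested with edgeR 4.0.16 (quasi-likelihood, TMM scaling, two-sided) in R 4.3.3, with Benjamini-Hochberg adjustment over all genes tested, and called at an adjusted p under 0.05 and at least 1.5-fold (interactions and differences of effects by the adjusted p alone). Each tissue's 4 genotypes, the 21 WT libraries, and all 80 libraries for differences between tissues were fitted together. Within a tissue this tests the spread between mice. The fits across tissues take libraries of the same mouse as independent, so their p-values do not measure that spread. The SE is the log2 fold change divided by the root of the F statistic. CPM used the TMM factors of all 80 libraries. DESeq2 1.42.0 and other scalings, count minimums, covariates, blocks and left-out libraries were alternatives. The edgeR and DESeq2 fits were also run on simulated counts for MMP9-/- over WT growth plate, with an outcome that is not reported here.

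The members and lists were chosen with earlier results of these data known. The rule for named genes was the members, up to 4 called genes per list and comparison with the smallest adjusted p, and the 5 genes most like each member (Pearson r of log2 CPM with a prior count of 2, relative to group means), of which 1 is not reported here. Mouse codes recur across tissues, so WT tissue comparisons were repeated with the mouse as a block. Libraries of the same mouse had a mean correlation of deviations of -0.05 (-0.41 to 0.24, 17 pairs). Positions are on GRCm38. Col10a1 (ENSMUSG00000039462) lies on chr10:34389981-34397085 (+), Ihh (ENSMUSG00000006538) on chr1:74945315-74951672 (-), Pth1r (ENSMUSG00000032492) on chr9:110722085-110747145 (-), Pthlh (ENSMUSG00000048776) on chr6:147252101-147264183 (-), Panx3 (ENSMUSG00000011118) on chr9:37659902-37669235 (-), Mef2c (ENSMUSG00000005583) on chr13:83504034-83667080 (+) and Runx3 (ENSMUSG00000070691) on chr4:135120652-135177990 (+).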

Additional observations from a re-analysis of the deposited data

Results flagged for a closer look

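Of 84 pairs of a member and a group, single libraries stood far from the rest of their group in 7. For normally distributed values about 1 group in 20 is expected to show this by chance, and whether that rate holds for these CPM was not tested. In WT cortical bone, replicate 5 had 648 CPM of Col10a1, with the next library at 262 CPM, and 39.2 CPM of Ihh (22 counts), with the next at 11.1 CPM. Its resting and proliferating chondrocyte genes summed to 14831 CPM, the highest of its group. The part of growth plate tissue in that library was not tested. In MMP2-/- cortical bone, replicate 5 had 36.3 CPM of Ihh, with the next library at 10.5 CPM. In MMPdKO calvaria, replicate 6 stood apart for 2 members, with 142 CPM of Mef2c against 61.3 CPM in the next library and 16.1 CPM of Panx3 against 7.81 CPM.

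In MMP2-/- growth plate, replicate 4 had 196 CPM of Mef2c, with the next library at 96.6 CPM. In MMP2-/- calvaria, replicate 7 had 40.1 CPM of Runx3, with the next library at 25.3 CPM. Among the hypertrophic cartilage genes beside the members, the effect of the double knockout on Alpl differed between tissues by a test of the difference itself. It was 1.32 larger on the log2 scale in growth plate than in calvaria (edgeR adjusted p = 0.0465). With the mouse as a block this difference was 1.07 and did not pass (edgeR adjusted p = 0.115).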

How the results depend on the processing

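Over 589 member values under alternatives other than a left-out library, 555 kept their direction and call, 18 lost a call, 7 gained one and 9 changed sign. Of 997 values with 1 library left out, 914 kept both, 47 lost a call, 3 gained one and 33 changed sign. No called member changed sign in these runs. The cause of the changes was not tested. Leaving out the 5 libraries low in Col2a1 (3 of them among the WT tissues), blocking the tissue differences by mouse and setting the libraries without against those with Mmp9 were chosen after seeing the data.

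Members called in MMP9-/- over WT growth plate numbered 2 as reported, 1 with edgeR's own filter, no count minimum, DESeq2-type (RLE) scaling or the neutrophil covariate, 0 without the 5 libraries low in Col2a1 or WT replicate 7, whose mouse code carries another number, and 0 to 2 with 1 library left out. In MMPdKO over MMP2-/- they numbered 0 as reported, 1 with DESeq2 or without the libraries low in Col2a1, 2 with the chondrocyte covariate, and 0 to 1 with 1 left out. For the double knockout effect, growth plate minus calvaria, RLE scaling gave 1 in place of 0. In MMPdKO over WT they numbered 3 as reported and 2 with the neutrophil covariate, no count minimum, RLE scaling, or without the libraries low in Col2a1 or WT replicate 7, each time by the loss of Ihh (edgeR adjusted p between 0.0523 and 0.116). With 1 library left out, MMPdKO over WT gave 1 to 3, the libraries without over with Mmp9 gave 2 to 3, and WT growth plate over calvaria gave 3 to 5.

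The numbers in the titles join different animals across genotypes, and same-numbered growth plate libraries had a mean correlation of -0.02 (39 pairs). With that number as a replicate block, the members called in MMP9-/- over WT growth plate numbered 1 (Col10a1 was lost, with an edgeR adjusted p of 0.101). In the same block the Ihh interaction was 0.23 and Panx3 in MMPdKO over MMP2-/- was 0.059.
The other sign changes were of values that had not been called. The Ihh interaction was 0.42 with the chondrocyte covariate and 0.069 without WT replicate 7, Ihh in MMP2-/- over WT was -0.074 with the chondrocyte covariate, and Panx3 in MMPdKO over MMP2-/- was 0.10 with the neutrophil covariate. Without the libraries low in Col2a1, Ihh in MMPdKO over MMP9-/- was -0.0096 and the Pth1r interaction 0.057. Pth1r in WT cortical bone over calvaria was 0.038 without the libraries with such a code. With 1 library left out, the ranges that crossed 0 were -0.079 to 0.41 for Col10a1 and -0.021 to 0.46 for Ihh in MMP2-/- over WT, -0.021 to 0.35 for Ihh and -0.063 to 0.21 for Runx3 in MMPdKO over MMP9-/-, -0.42 to 0.11 for Mef2c, -0.31 to 0.31 for Panx3 and -0.064 to 0.24 for Runx3 in MMPdKO over MMP2-/-, -0.30 to 0.18 for Ihh and -0.15 to 0.023 for Pth1r in the interaction, -0.012 to 0.24 for Mef2c without over with Mmp9, -0.046 to 0.15 for Mef2c in growth plate over cortical bone, and -0.84 to 0.37 for Ihh in cortical bone over calvaria. Pth1r in WT growth plate over cortical bone lost its call without the libraries with such a code (0.86, edgeR adjusted p = 0.14). Genes called over all genes ranged from 6 to 649 for MMP9-/- over WT growth plate (27 as reported) with the fewest without the libraries low in Col2a1 and the most with the chondrocyte covariate, and from 18 with the neutrophil to 1209 with the chondrocyte covariate for MMPdKO over WT (599). They ranged from 22 to 775 without over with Mmp9 (263), from 1 to 172 for MMPdKO over MMP2-/- (2), from 73 to 387 for WT growth plate over cortical bone (283), from 257 to 493 over calvaria (448) and from 2 with the mouse block to 111 without the libraries low in Col2a1 for the double knockout effect in growth plate minus calvaria (62) and from 1 to 5 for that of MMP9 loss (3). Depth limits Pthlh in all 3 tissues and Ihh in both bones.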
